A study of Rattus norvegicus with 8 samples.

Results

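The genes described here encode splicing and RNA-binding proteins: the SR proteins (Srsf genes), the Clk kinases that phosphorylate them, the heterogeneous nuclear ribonucleoproteins (Hnrnp genes), the SF3a and SF3b subunits of the spliceosome and the RNA-binding motif proteins (Rbm and Rbms genes). Genes were taken by name: a probe set belonged if the array's annotation gave it a single gene symbol of these families, and each gene was represented by its brightest probe set, judged by the mean of all 8 arrays. This gave 74 genes, read by 120 probe sets, of 11217 genes with a single symbol on the array. Of these, 73 passed a filter on low values, a log2 value of 5 or more on at least 2 arrays, and 71 reached that value on all 8 arrays. Rbm20, which encodes a titin splicing factor of muscle, did not pass and read 3.31 to 4.28. The 7 probe sets annotated to several symbols, 1 of them from these families, were not analysed here.

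RNA was taken from dorsal-caudal lung tissue. The animals were Sprague-Dawley rats, males of 340 to 400 g, and the RNA was hybridised to an Affymetrix rat expression array. The control group held 2 rats that were not ventilated. The prone group held 3 rats and the supine group 3 rats, all anaesthetised, tracheotomised and ventilated in the named position at 18 mL per kg, 40 breaths per minute and an end-expiratory pressure of 0 cmH2O for up to 3 hours. The supine titles abbreviate the tidal volume differently (SVt) from the prone ones (HVt), while the condition label calls it high in both. No gene was altered in any group, and whether the controls had anaesthesia or surgery is not given in the labels, so these and ventilation cannot be told apart. Values are on a log2 scale, on which a difference of 1 is a doubling, and levels were compared only within a probe set.

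Splicing removes introns from the primary transcript and joins its exons. SR proteins bind exons through their RNA recognition motifs and recruit the spliceosome through domains rich in arginine and serine, and kinases of the Clk family set how strongly these domains are phosphorylated. The hnRNP proteins coat nascent transcripts and often oppose SR proteins at the same exons, while SF3a and SF3b belong to the U2 small nuclear ribonucleoprotein, which recognises the intron's branch site. The Rbm proteins share only the RNA recognition motif and range from spliceosome components to factors of RNA decay, methylation and ribosome assembly. In mammalian cells heat and other stresses are known to alter SR protein phosphorylation and to hold many introns in nuclear transcripts, and Clk1 is a textbook case of such a retained-intron transcript.

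The lung epithelial markers of the list used here (Sftpc, Scgb1a1 and others, 8 of 8 present) averaged 14.26 and 14.28 in controls and 13.51 to 13.98 on ventilated arrays, and endothelial markers (4 of 5 present) 13.22 and 13.23 against 12.01 to 12.99. Lung markers were thus present on every array, and their means were lower on all 6 ventilated ones. Single markers did not all follow: Sftpd read 13.54 and 13.63 in controls, 13.65 on prone 2 and 13.75 on supine 3. Cardiac markers averaged 9.06 on prone 2 and 7.56 on supine 3 against 2.88 to 3.95 elsewhere. Of the hepatocyte markers, albumin (Alb) read 12.44 on supine 3, 8.27 on prone 2, 5.54 on prone 3 and 2.25 to 2.35 on the others. Ttr was highest on the same arrays (9.94, 5.15 and 3.11), and Apoa1 read 4.74 on supine 3 and 2.04 to 2.41 elsewhere. Serpina1 did not follow, at 9.84 and 9.91 in controls, 9.17 on prone 2 and 9.93 on supine 3. Neutrophil markers averaged 6.65 and 6.54 in controls and 8.75 to 11.56 on ventilated arrays. Lymphocyte markers averaged 9.25 and 7.84 against 4.16 to 7.41, and mesothelial markers 9.28 and 9.16 against 5.29 to 7.59. These means thus differed with the groups compared here, while some lymphocyte and mesothelial markers did not follow on every array. Gzma read 10.18 on supine 1 against 9.76 and 8.28 in controls. Msln read 10.36 on prone 2 against 10.25 and 10.28, and Wt1 6.92 on prone 1 against 6.61 and 6.75. On supine 3 the 3′ probe set of beta-actin exceeded the 5′ one by 9.10, against 3.16 to 4.64 on the other arrays, the usual sign of degraded RNA. The part of these differences in the results below was not tested, and counts without each array are given. In whole tissue, fewer cells of a type and less RNA per cell cannot be told apart. Median log2 values per array lay between 7.77 and 7.95, and the median over all tested probe sets was -0.12 in prone and -0.07 in supine lungs against controls.

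In prone lungs most genes of these families read higher than in non-ventilated lungs. Of the 73 tested genes 52 lay above the control mean (71.2%, against 41.2% of all 10240 tested genes), and their median difference was 0.21 on the log2 scale, against -0.15 over all tested genes. On the prone arrays taken singly the members' median was 0.24, 0.23 and 0.20 above the control mean, above 0 on each array, against -0.04, -0.19 and -0.19 over all genes. The largest differences above controls were those of Rbm33, Rbm38, Rbm15b, Hnrnpa1 and Clk4, and the largest below were those of Rbmx, Hnrnpd, Hnrnpa0 and Hnrnpr.

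No member passed the test across all probe sets (limma, Benjamini-Hochberg adjusted p under 0.05). The smallest adjusted p among them was 0.114, for Rbm38, and the same test called 0.0391% of all tested genes and 0.0533% of all probe sets. At an unadjusted p under 0.05, 14 members were higher and 4 lower. That is 19.2% of members higher against 6.36% of all tested genes, and 5.48% lower against 10.7%. In either direction the members' 24.7% stood near the 17.1% of all genes. The 3 prone arrays all lay above both controls for 34 members (46.6%, against 18.6% of all genes) and all below for 8 (11%, against 29.0%), together 57.5% of members against 47.6% of all genes. The count of 18 was 8 without control 1, 6 without control 2 and 14 to 20 without any other array. With the replicate number as a block it was 14, and the 9 probe sets that passed over the whole array became 0.

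In supine lungs, too, most of these genes read higher than in controls, and few had a small p-value. 54 of 73 lay above the control mean (74%, against 46% of all tested genes), with a median difference of 0.30 against -0.07 over all genes. The members' median stood 0.30, 0.31 and 0.37 above controls on supine 1, 2 and 3, against 0.05, -0.05 and -0.17 over all genes. The highest of these, 0.37, was on supine 3, the array with degraded RNA. Hnrnpa1 was farthest above and Rbmx farthest below. Again 0 members passed (smallest adjusted p 0.182, for Hnrnpa1; 0.0391% of all genes and 0.0533% of probe sets passed in limma). At an unadjusted p under 0.05, 6 members were higher (8.22%, against 6.48% of all genes) and 1 lower (1.37%, against 7.86%). In either direction this was 9.59% of members against 14.3% of all genes, no more than the background. Groups did not overlap for 25 members above (34.2%, against 19.4% of all genes) and 8 below (11%, against 22.9%), together 45.2% against 42.4%. Both comparisons share the same 2 control arrays. The count of 7 was 2 without control 1, 1 without control 2, 11 without prone 1 or supine 1, and 12 without supine 2. It remained 7 without the degraded supine 3 and with the replicate block.

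**Figure D1:**
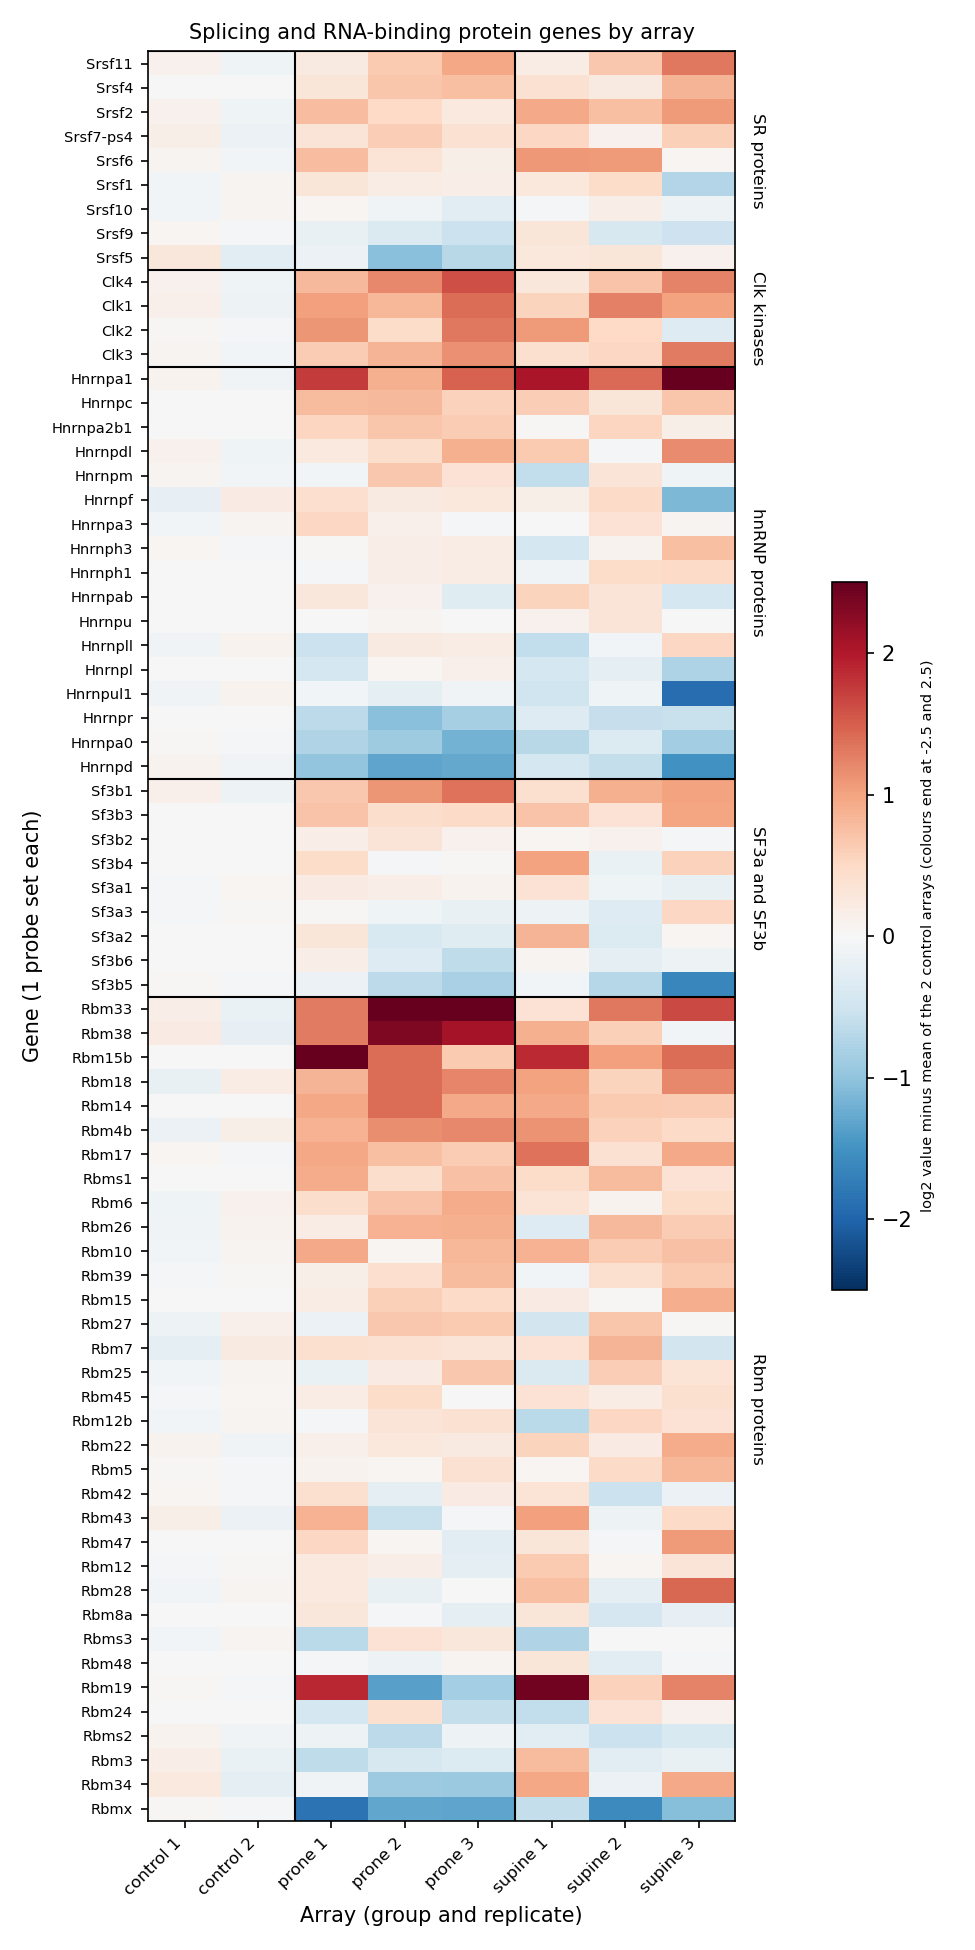
Log2 value of each of the 73 tested genes on each of the 8 arrays (columns) minus the mean of the 2 control arrays, red above and blue below, in 5 families ordered by the prone difference. The Clk kinases and the upper Rbm rows are red on most ventilated arrays, while Rbmx, Hnrnpd, Hnrnpa0 and Hnrnpr are blue on all 6.

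Among the kinases that phosphorylate SR proteins, all 4 Clk genes lay above both controls on every prone array, as did 18.6% of all tested genes. Their prone means stood 0.88 to 1.21 above the control means. Clk1, a dual-specificity kinase that releases SR proteins from nuclear speckles, read 11.79 and 11.55 in the controls, 12.69, 12.49 and 13.08 in prone and 12.23, 12.93 and 12.67 in supine lungs. All 6 ventilated arrays exceeded both controls. The difference was 1.08 ± 0.33 in prone lungs (SE, 2.11-fold, adjusted p 0.172) and 0.94 ± 0.33 in supine lungs (1.92-fold, adjusted p 0.28). Its close relative Clk4 read 10.12 and 9.90 in controls, 10.81, 11.22 and 11.62 in prone and 10.29, 10.73 and 11.25 in supine lungs. Here too no ventilated array reached down to the controls, and the supine values spread over almost 1 log2 unit. The prone difference was 1.21 ± 0.39 (2.31-fold, adjusted p 0.185) and the supine one 0.75 ± 0.39 (adjusted p 0.39).

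Clk3, which is prominent in testis and acts on the same substrates, read 8.62 and 8.50 in controls, 9.19, 9.40 and 9.70 in prone and 8.96, 9.08 and 9.86 in supine lungs. It followed the pattern of Clk4, with differences of 0.88 ± 0.36 in prone (adjusted p 0.263) and 0.74 ± 0.36 in supine lungs (adjusted p 0.368, or 0.46 on the log2 scale without supine 3). Clk2, a kinase also tied to insulin signalling, read 8.38 and 8.31 in controls, 9.44, 8.80 and 9.67 in prone and 9.40, 8.83 and 8.03 in supine lungs. Supine 3, the array with degraded RNA, lay below the controls and the other ventilated arrays did not, so that Clk2 stood at 0.96 ± 0.46 in prone (adjusted p 0.329) and 0.41 ± 0.46 in supine lungs (adjusted p 0.671), or 0.087 without supine 1 and 0.77 without supine 3. Supine minus prone was below 0 for all 4 kinases, from -0.55 to -0.13, with overlapping groups and an adjusted p of at least 0.942. Without prone 3 or supine 1 the sign turned for Clk1 (up to 0.0503) and Clk3 (up to 0.035).

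**Figure D2:**
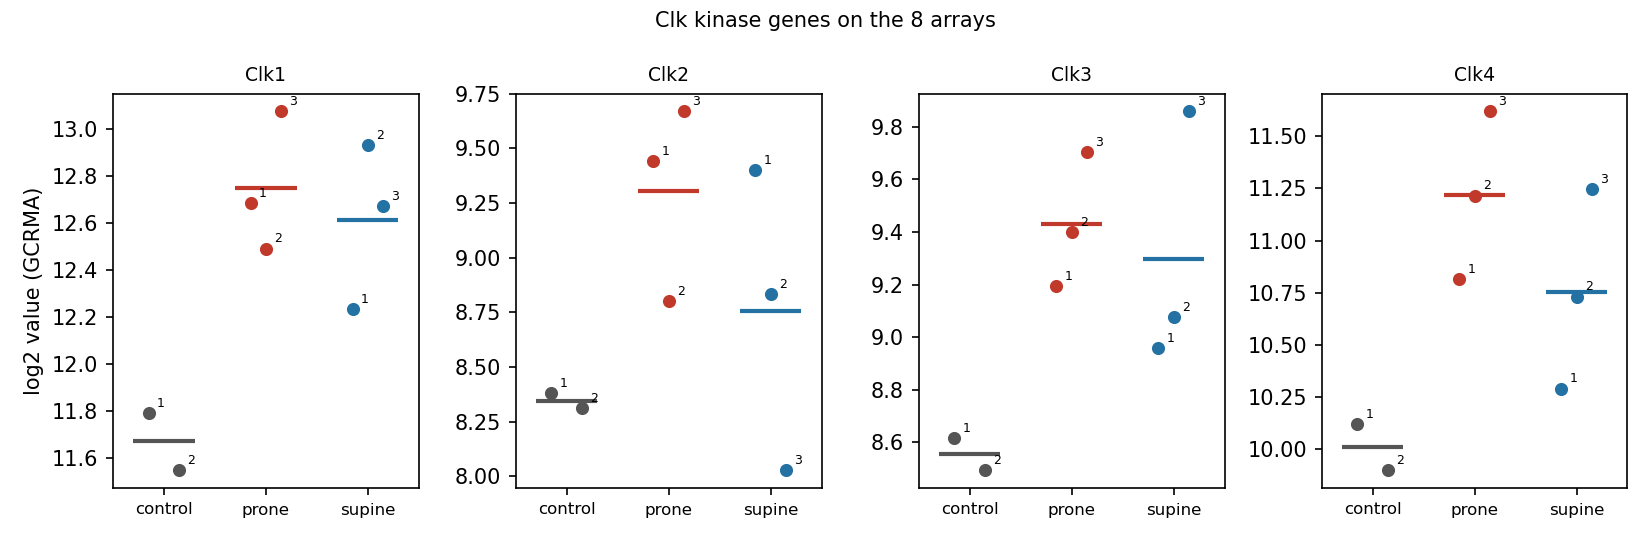
Log2 values of Clk1, Clk2, Clk3 and Clk4 by group, each point an array with its replicate number and each line a group mean; the vertical axes do not start at 0 and differ between panels. Every prone array lies above both controls in all 4 panels, and of the supine arrays only supine 3 in the Clk2 panel does not.

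The promoters of Clk1 and Clk4 are shown with those of Rbm18, another member above controls in both groups, and Rbmx, the member farthest below. Other members above controls in both groups, such as Hnrnpa1, Rbm33 and Rbm15b, are not shown. Clk4 and Rbm18 are also the only members with the full palindrome given below, so these promoters do not represent the members above controls. Each is 250 bases before to 50 after the start in RefSeq (GRCr8, rat), 5′ to 3′ on the gene's strand, and capitals mark TGACG or its reverse complement, the core of the cAMP response element. For Clk4 the RefSeq table has 2 starts and the second is shown; the first holds 0 such cores.
Clk1, chr9:67453131-67453430, minus strand: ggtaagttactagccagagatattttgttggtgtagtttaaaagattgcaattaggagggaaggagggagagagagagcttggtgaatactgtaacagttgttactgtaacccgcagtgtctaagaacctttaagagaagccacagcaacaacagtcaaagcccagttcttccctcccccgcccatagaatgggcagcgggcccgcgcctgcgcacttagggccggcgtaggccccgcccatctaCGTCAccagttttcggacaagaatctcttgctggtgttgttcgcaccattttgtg
Clk4, chr10:36025490-36025789, plus strand: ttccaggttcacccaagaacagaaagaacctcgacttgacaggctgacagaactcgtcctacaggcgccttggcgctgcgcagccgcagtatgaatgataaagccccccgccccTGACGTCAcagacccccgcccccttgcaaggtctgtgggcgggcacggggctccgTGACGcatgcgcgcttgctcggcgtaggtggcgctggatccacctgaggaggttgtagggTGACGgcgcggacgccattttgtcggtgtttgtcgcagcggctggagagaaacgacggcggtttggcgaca
Rbm18, chr3:39884528-39884827, minus strand: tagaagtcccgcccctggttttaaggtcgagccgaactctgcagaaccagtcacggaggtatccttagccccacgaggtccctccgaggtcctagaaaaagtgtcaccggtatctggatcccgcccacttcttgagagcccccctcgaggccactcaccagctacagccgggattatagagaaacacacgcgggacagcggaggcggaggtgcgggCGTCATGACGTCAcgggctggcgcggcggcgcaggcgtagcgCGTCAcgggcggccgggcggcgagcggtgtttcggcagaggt
Rbmx, chrX:140351986-140352285, minus strand: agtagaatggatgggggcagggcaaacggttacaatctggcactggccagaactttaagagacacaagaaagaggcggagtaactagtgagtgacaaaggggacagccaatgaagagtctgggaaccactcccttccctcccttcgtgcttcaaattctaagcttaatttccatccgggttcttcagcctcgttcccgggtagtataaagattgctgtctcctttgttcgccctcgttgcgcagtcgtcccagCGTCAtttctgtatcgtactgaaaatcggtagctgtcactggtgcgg
Clk4, at its second start, and Rbm18 hold the full palindrome TGACGTCA, found in 2 of the 66 members with a promoter in the table (3.03%) and in 3.13% of all 9323 array genes with one. Clk1 and Rbmx each hold 1 core, and the core on either strand was present in 35 of 66 members (53%) against 32.5% of array genes. A match is a description of these letters only, and base composition was not matched between the sets.

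Of the 9 SR genes tested, 6 lay above the control mean in prone and 7 in supine lungs, with medians of 0.43 and 0.41. These were 66.7% and 77.8%, against 41.2% and 46% of all tested genes. Srsf2 (SC35), the standard marker of nuclear speckles, read 12.89 and 12.66 in controls, 13.55, 13.28 and 13.02 in prone and 13.72, 13.53 and 13.85 in supine lungs. All ventilated arrays exceeded the controls, and Srsf2 was the only SR gene at an unadjusted p under 0.05 against controls, in supine lungs (0.92 ± 0.29, 1.89-fold, adjusted p 0.257), with 0.50 ± 0.29 in prone lungs (adjusted p 0.41). Its second probe set gave 0.50 and 0.89. Srsf1, the founding SR protein, stood at 0.22 ± 0.39 in prone and -0.0040 ± 0.39 in supine lungs, and supine 3 read 10.98 where the other 7 arrays lay between 11.64 and 12.17.

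Srsf5, an SR protein whose transcript responds to growth signals and insulin, had an unadjusted p under 0.05 between the 2 body positions and not against controls (limma). Such a p between positions was seen for 3 members (4.11%, against 3.45% of all genes). It read 11.22 and 10.65 in controls, 10.79, 9.88 and 10.25 in prone and 11.20, 11.25 and 11.03 in supine lungs. Every supine array exceeded every prone array, while the controls overlapped both groups and 2 of the 3 prone arrays lay below them. The supine minus prone difference was 0.85 ± 0.32 (1.81-fold, adjusted p 0.942). Srsf4, Srsf6 and Srsf11 lay above controls on all prone arrays (0.43 to 0.62), though the other probe sets of Srsf6 gave -0.47 and -0.50. On the probe sets used, Srsf9 lay below controls (-0.36), and Srsf10, a splicing repressor activated by dephosphorylation in heat shock, ranged over only 0.46 across the 8 arrays, while its other tested probe set stood at 0.97 in prone lungs. The ninth probe set is annotated to a pseudogene of Srsf7 (Srsf7-ps4, 0.43 in prone lungs), and whether it also reads Srsf7 transcripts was not tested.

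The hnRNP genes lay on both sides of the controls. Of 17 tested, 11 lay above the control mean in prone lungs and 9 in supine lungs, with medians of 0.11 and 0.14. These were 64.7% and 52.9%, against 41.2% and 46% of all tested genes. Hnrnpa1, an exon-skipping repressor that moves to stress granules under stress, read 10.66 and 10.49 in controls, 12.32, 11.46 and 12.04 in prone and 12.62, 11.99 and 13.08 in supine lungs. All 6 ventilated arrays were higher, by 1.37 ± 0.41 in prone (2.58-fold, adjusted p 0.169) and 1.99 ± 0.41 in supine lungs (3.97-fold, adjusted p 0.182). This rested on 1 of 3 probe sets, the brightest over all 8 arrays but not in the controls. The others gave 0.33 and -0.23 in prone and 0.95 and -0.33 in supine lungs, and their mean with the first was 0.49 and 0.87. The probe set with -0.23 and -0.33 read 10.87 and 10.97 in controls, above the one used. Choice by the mean of all arrays thus favoured the probe set that was higher on ventilated arrays. Hnrnpc, which packages nascent transcripts and counts uridine tracts, lay above controls on all ventilated arrays, at 0.73 ± 0.27 in prone (adjusted p 0.226) and 0.53 ± 0.27 in supine lungs.

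A group of hnRNP genes lay below controls. Hnrnpd, which encodes AUF1 and promotes decay of AU-rich cytokine mRNAs, read 11.20 and 11.01 in controls, 10.12, 9.78 and 9.82 in prone and 10.67, 10.51 and 9.59 in supine lungs. Hnrnpa0, a target of stress-activated MAPKAP kinase signalling that binds AU-rich elements, read 13.19 and 13.12, then 12.40, 12.27 and 11.98 in prone and 12.46, 12.81 and 12.29 in supine lungs. For both, no ventilated array reached the controls. Hnrnpd stood at -1.20 ± 0.38 in prone (0.435-fold, adjusted p 0.182) and -0.85 ± 0.38 in supine lungs (adjusted p 0.342), and Hnrnpa0 at -0.94 ± 0.29 (0.522-fold, adjusted p 0.177) and -0.63 ± 0.29 (adjusted p 0.352). Hnrnpr, a partner of the survival motor neuron protein, read 11.78 and 11.80 in controls against 10.74 to 11.13 in prone and 11.22 to 11.46 in supine lungs, and its prone difference was -0.85 ± 0.27 (adjusted p 0.182). Among the others Hnrnpu, the scaffold attachment factor, was the steadiest member on the probe sets used, with a range of 0.33 over the 8 arrays. Another of its probe sets ranged over 4.46.

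Of the 9 SF3a and SF3b subunits, 5 lay above the control mean in prone and 7 in supine lungs, with medians of 0.15 and 0.04. These were 55.6% and 77.8%, against 41.2% and 46% of all tested genes. Sf3b1, the large subunit that clamps the branch site, read 12.44 and 12.19 in controls, 12.99, 13.42 and 13.67 in prone and 12.71, 13.20 and 13.33 in supine lungs. All ventilated arrays exceeded both controls, by 1.04 ± 0.34 in prone (2.06-fold, adjusted p 0.187) and 0.76 ± 0.34 in supine lungs (adjusted p 0.337). With the mean of its 3 probe sets these values were 0.51 and 0.48, and its other probe sets had both signs in supine lungs (1.33 and -0.66). Sf3b3 lay above controls on all ventilated arrays too (0.54 and 0.68), while the small subunit Sf3b5 lay below (-0.53 and -0.81, with supine 3 lowest at 9.92). Sf3a1, Sf3a2, Sf3a3, Sf3b2, Sf3b4 and Sf3b6 differed from controls by less than 0.5 in both groups on the probe sets used.

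In prone lungs the largest differences above and below controls were those of Rbm genes. Of 34 tested, 26 lay above the control mean in prone and 27 in supine lungs, with medians of 0.21 and 0.38. These were 76.5% and 79.4%, against 41.2% and 46% of all tested genes. Rbm33, which binds mRNA for nuclear export and demethylation, read 8.08 and 7.75 in controls, 9.21, 10.54 and 10.92 in prone and 8.28, 9.23 and 9.56 in supine lungs. Every ventilated array was above the controls, although supine 1 only just. The prone difference was 2.30 ± 0.58 (4.94-fold, adjusted p 0.131) and the supine one 1.11 ± 0.58 (2.15-fold, adjusted p 0.396). Rbm15b, a paralogue of the RNA methylation adaptor Rbm15, read 7.22 and 7.23 in controls, 10.14, 8.63 and 7.89 in prone and 9.10, 8.25 and 8.62 in supine lungs. Prone 1 stood far above the rest, and the prone difference of 1.66 ± 0.63 (adjusted p 0.233) was 1.03 without that array, while the supine one was 1.43 ± 0.63 (adjusted p 0.335).

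Rbm38, a p53-induced protein that stabilises the Cdkn1a transcript, had the smallest unadjusted p of the members between positions (limma). An unadjusted p under 0.05 was seen there for 4.11% of members, against 3.45% of all genes. It read 7.53 and 7.11 in controls, 8.62, 9.64 and 9.39 in prone and 8.20, 7.92 and 7.25 in supine lungs. Prone arrays lay above all others, while supine 3 lay between the controls. The prone difference from controls was 1.90 ± 0.43 (3.74-fold, adjusted p 0.114), the supine one 0.47 ± 0.43 (adjusted p 0.602), and supine minus prone -1.43 ± 0.38 (0.371-fold, adjusted p 0.942).

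Several Rbm genes with nuclear roles lay above the controls on all ventilated arrays. Rbm14, a paraspeckle protein and coactivator, read 10.21 and 10.19 in controls, 11.17, 11.59 and 11.15 in prone and 11.15, 10.85 and 10.83 in supine lungs. Replicates were close in each group, and the differences were 1.10 ± 0.28 (2.15-fold, adjusted p 0.132) and 0.74 ± 0.28 (adjusted p 0.299). Rbm18 read 9.21 and 9.59 in controls against 10.26 to 10.80 in prone and 9.96 to 10.61 in supine lungs (1.16 ± 0.33, adjusted p 0.155, and 0.92 ± 0.33, adjusted p 0.284). Its second, dimmer probe set gave 1.60 and 1.52. That one read 3.15 and 4.01 in controls and passed the filter only through ventilated arrays (4.81 to 5.47), so it is no separate support. Rbm4b, a regulator of alternative splicing, stood at 1.08 ± 0.31 (adjusted p 0.161) and 0.72 ± 0.31 (adjusted p 0.334). Rbm17, the splicing factor SPF45, stood at 0.79 ± 0.34 (adjusted p 0.287) and 0.90 ± 0.34 (1.86-fold, adjusted p 0.3). Rbm6 and Rbms1 completed the members at an unadjusted p under 0.05 in prone lungs, both at 0.70 ± 0.29. Rbms1 lay above the controls on all ventilated arrays. Rbm6 did not, with 9.23 on supine 2 against 9.25 in control 2 and a supine difference of 0.30 ± 0.29.

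Rbmx, the X-linked hnRNP G that also acts in DNA repair, was the member farthest below controls in both groups. It read 8.93 and 8.86 in controls, 7.04, 7.60 and 7.58 in prone and 8.31, 7.31 and 7.83 in supine lungs. All 6 ventilated arrays lay below, by -1.49 ± 0.37 in prone (0.356-fold, adjusted p 0.128) and -1.08 ± 0.37 in supine lungs (0.473-fold, adjusted p 0.275). The cold-inducible Rbm3 read 13.14 and 12.79 in controls, 12.34, 12.57 and 12.62 in prone and 13.76, 12.70 and 12.79 in supine lungs. Prone arrays lay just below the others, and supine 1 stood above all, with differences of -0.46 ± 0.38 in prone (adjusted p 0.574) and 0.12 ± 0.38 in supine lungs (adjusted p 0.894). Cirbp, the other cold-inducible RNA-binding protein and no member by name, stood at -2.82 ± 0.61 in prone (adjusted p 0.11) and -1.71 ± 0.61 in supine lungs (adjusted p 0.283). Body temperature is not given in the labels. The heat-induced chaperone genes Hspa1a and Hsph1 stood at 4.69 ± 0.83 and 3.93 ± 0.61 in prone and 3.03 ± 0.83 and 2.60 ± 0.61 in supine lungs (adjusted p 0.0899, 0.0781, 0.225 and 0.195).

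**Figure D3:**
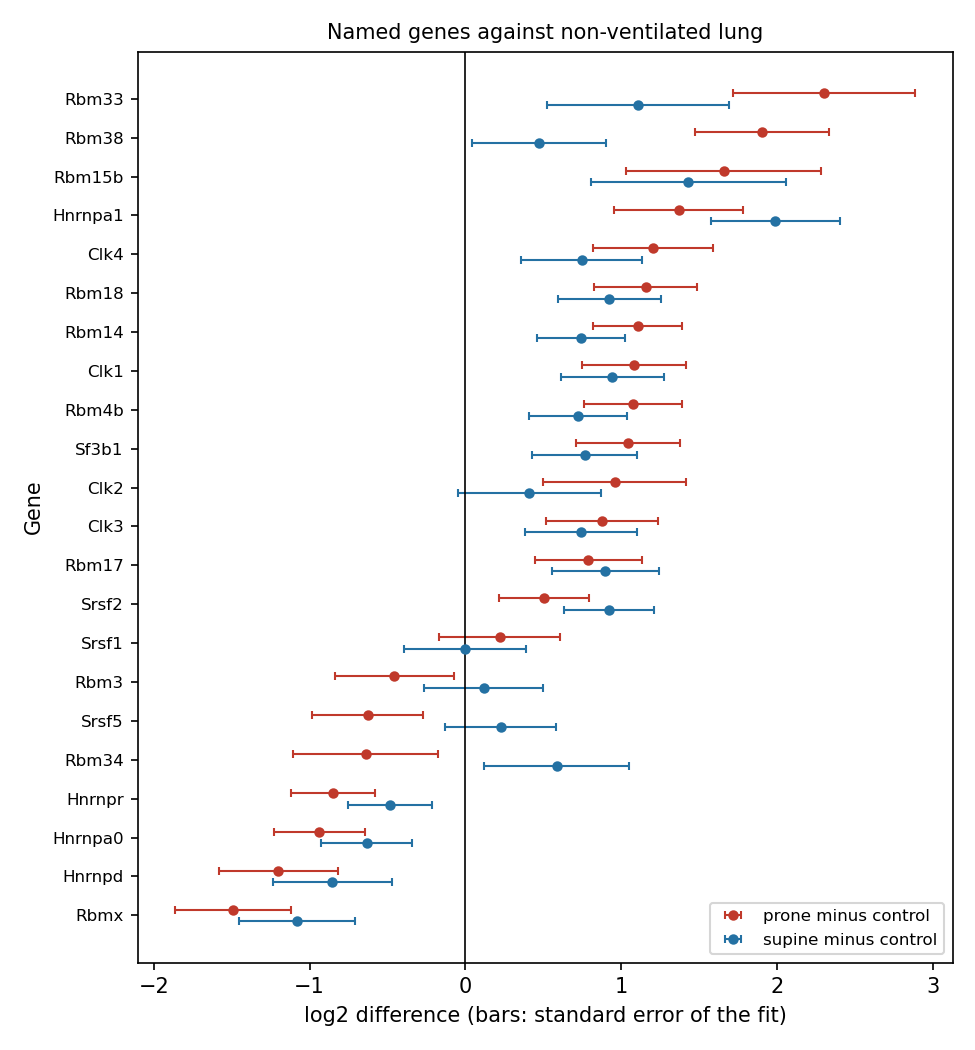
Log2 difference from the 2 control arrays for the 22 members named by rule, prone in red and supine in blue (3 arrays each), with bars of 1 standard error. Most genes lie on the same side of 0 in both groups, and Rbm38 and Rbm33 are farther right in prone lungs. Srsf5, Rbm34, Rbm3 and Srsf1 lie on different sides of 0, Srsf1 only just (-0.0040 in supine lungs).

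Body position was then compared directly, supine minus prone. The median over members was -0.02 (0.07 over all tested genes), and 35 of 73 lay above 0. No member or other probe set passed (limma; smallest adjusted p 0.942, 0% of all genes called). At an unadjusted p under 0.05, 2 members were higher (2.74%, against 2.33% of all genes) and 1 lower (1.37%, against 1.11%) in supine lungs. The members' 4.11% in either direction stood at the background of 3.45%. They were Rbm34, Srsf5 and Rbm38. Rbm34, whose yeast counterpart acts in ribosome assembly, read 8.32, 7.50 and 7.48 in prone and 9.38, 8.25 and 9.36 in supine lungs, with controls at 8.66 and 8.16. The groups overlapped between supine 2 and prone 1, and the difference was 1.23 ± 0.42 (2.34-fold, adjusted p 0.942). Groups did not overlap for 3 members above (4.11%, against 3.58% of all genes) and 2 below (2.74%, against 1.94%), together 6.85% against 5.53%. These, besides Srsf5 and Rbm38, were Rbm3, Rbm14 and Hnrnpr. With the replicate block the count of 3 became 5, and it was 1 without prone 2, prone 3 or supine 1 and 5 without prone 1 or supine 2.

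Other genes of the splicing pathway are given by list. Of 65 tested core spliceosome genes outside these families 5 were higher and 1 lower in prone, and 5 higher and 0 lower in supine lungs, at an unadjusted p under 0.05, with medians of 0.07 and 0.13. The higher share of 7.69% in each group stood near the 6.36% and 6.48% of all tested genes, and the lower shares were 1.54% and 0% against 10.7% and 7.86%. Sf1, the branch site binding protein that precedes SF3b, stood at 1.48 ± 0.30 in prone lungs (adjusted p 0.107), Snrnp48 of the minor spliceosome at 1.24 ± 0.29 and 1.08 ± 0.29 in prone and supine lungs, Prpf4 at 1.22 ± 0.41 in supine lungs, and Bcas2 at -0.88 ± 0.31 in prone lungs. Among 63 other splicing regulators 12 were higher and 1 lower in prone, and 8 and 1 in supine lungs (medians 0.14 and 0.15). The higher shares were 19% and 12.7% (all genes 6.36% and 6.48%) and the lower share 1.59% in each group (10.7% and 7.86%). The helicase Ddx17 (1.53 ± 0.50) and the cyclophilin Nktr (1.38 ± 0.44) led in prone, and the stress granule protein Tia1 (1.64 ± 0.59) and Pcbp3 (1.61 ± 0.45) in supine lungs, with Cirbp the lower gene in both.

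Of 24 kinases, phosphatases and import factors of SR proteins, 4 were higher in prone and 3 in supine lungs, and 0 lower (medians 0.11 and 0.17). These were 16.7% and 12.5% of the list against 6.36% and 6.48% of all genes. Ppp1r10, the nuclear targeting subunit of protein phosphatase 1, read 7.89 and 8.02 in controls, 10.11, 10.54 and 11.08 in prone and 8.73, 8.55 and 9.80 in supine lungs. All prone arrays exceeded all supine arrays, which exceeded the controls. It stood at 2.62 ± 0.46 in prone (adjusted p 0.0899) and, supine minus prone, at -1.55 ± 0.41 (adjusted p 0.942). Cdk12, a kinase of RNA polymerase II that supports splicing of long genes, stood at 2.17 ± 0.46 and 1.21 ± 0.46, and Hipk3 at 1.19 ± 0.46 in supine lungs. Of 25 exon junction, export and decay genes 4 were higher in each group and 0 lower (medians 0.18 and 0.28), or 16% against 6.36% of all genes in prone and 6.48% in supine lungs. The mRNA exporter Nxf1 stood at 1.57 ± 0.31 in prone (adjusted p 0.0994), the helicase Ddx39a at 1.88 ± 0.53 and Thoc1 at 1.53 ± 0.44 in supine lungs. No gene of these lists passed in any comparison (limma). In supine against prone lungs Fubp3 (0.66 ± 0.25) and Ppp1r10 alone had an unadjusted p under 0.05.

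Different probe sets of 1 gene often differed in sign. The array read 26 members with several probe sets, up to 5. In prone against control lungs 10 of them had tested probe sets of both signs, 14 of 1 sign and 2 only 1 tested probe set, and in supine lungs 9 had both signs. Besides those that stand for genes, 39 further probe sets of 24 members were tested. Of these 8 were higher and 1 lower at an unadjusted p under 0.05 in prone lungs (23.1%, against 17.7% of all tested probe sets), and 4 higher and 1 lower in supine lungs (12.8%, against 15.2%). Between positions 1, a probe set of Srsf6, had such a p (2.56%, against 4.09% of all probe sets). The median of the further probe sets was 0.50 in prone and 0.32 in supine lungs. Among those counted, probe sets of Rbm18 and Rbm26 (higher) and Rbms2 (lower) passed the filter only through the arrays where they read high. Shares by direction over all probe sets were not counted. Over all tested genes they were 6.36% higher and 10.7% lower in prone, and 6.48% and 7.86% in supine lungs.

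The genes of the following examples were chosen after their values were seen. The probe set that stands for Hnrnpu read 12.66 to 12.99 on all arrays. Its dimmest probe set read 7.85 and 7.01 in controls, 9.64, 9.35 and 11.05 in prone and 9.06, 10.37 and 11.47 in supine lungs. Controls thus lay below all ventilated arrays on it, by 2.58 ± 0.78 and 2.87 ± 0.78 (adjusted p 0.167 and 0.22), where the bright probe set gave 0.02 and 0.15. Rbm5, a splicing factor of apoptosis genes, was another case: its bright probe set stood at 0.17 ± 0.32 in prone lungs and its dimmest at 2.64 ± 0.76 (adjusted p 0.158), with values of 6.51 and 6.08 in controls, 7.84, 9.46 and 9.52 in prone and 6.61, 8.76 and 8.53 in supine lungs. For Hnrnpa2b1, a packaging protein of nascent transcripts, 1 dimmer probe set stood at 1.42 ± 0.37 and 1.68 ± 0.37, against 0.62 ± 0.28 and 0.24 ± 0.28 for the bright one. Rbms2 was lowest on a dim probe set (-2.17 ± 0.53 in prone lungs, adjusted p 0.124), and its bright one stood at -0.30 ± 0.29. The dim one read 5.70 and 6.47 in controls and under 5 on all ventilated arrays, so it passed the filter only through the controls. Which transcripts each probe set reads was not analysed here.

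**Figure D4:**
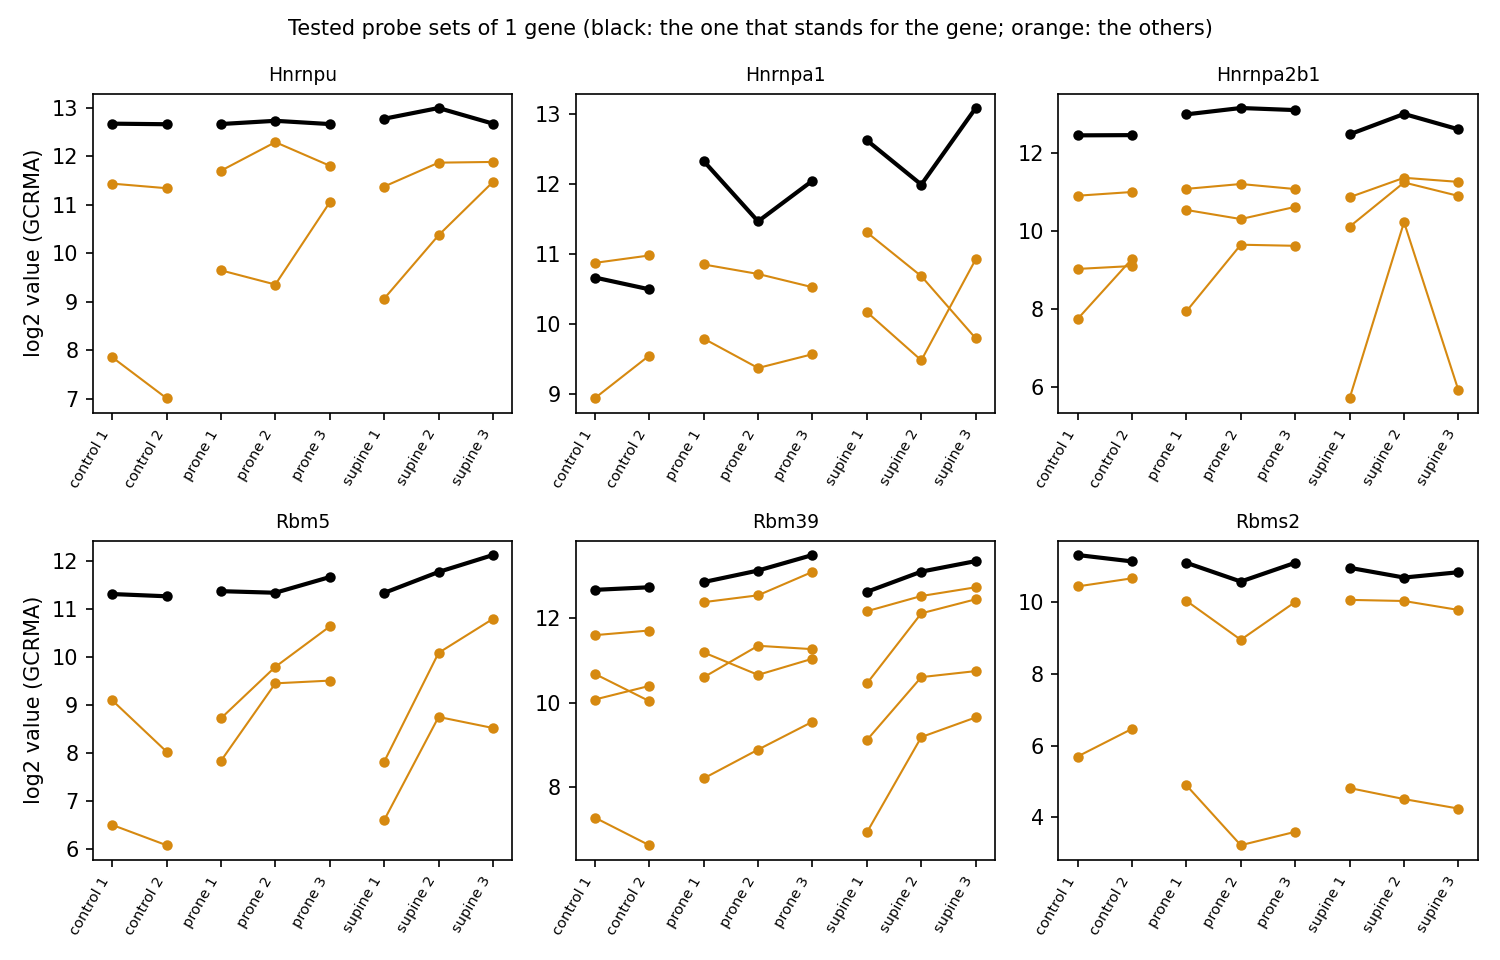
Log2 values of all tested probe sets of 6 genes on the 8 arrays, black for the probe set that stands for the gene and orange for the others; lines join values of 1 probe set within a group and carry no order. For Hnrnpu and Rbm5 the dimmest probe set differs more between control and ventilated arrays than the black one, and for Hnrnpa1 the black one differs most.

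The range between the highest and the lowest array had a median of 1.16 over the 73 tested members and 1.57 over all tested genes, and 5 members (6.85%) against 33.7% of genes ranged over more than 2. These were Rbm19, Rbm33, Rbm15b, Hnrnpa1 and Rbm38, and those under 0.5 were Hnrnpu, Sf3b2 and Srsf10, each on the probe set that stands for the gene. Supine 3 held the highest or lowest value of the 8 for 27 members (37%, against 34.7% of genes), and supine 1 for 25 (34.2%, against 36.6%).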

How the data were processed

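Lung RNA of 8 rats, 300 ng of each, was hybridised to 1-colour arrays. From their range the deposited values are log2 intensities; per the submitters' processing notes the authors used GCRMA and Partek 6.5. Their filter and test: not given in the sources used here. Groups came from the labels, whose titles call each sample a biological replicate and number it within its group. 28 control probe sets were set aside, and 16896 of 20242 probe sets were tested, those that reached log2 5 on 2 or more arrays. Symbols came from GEO's platform annotation; all 74 members matched RefSeq (GRCr8) by gene identifier with the same symbol.

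limma 3.58.1 (R 4.3.3) fitted group means over the 8 arrays together (5 residual and 2.51 prior degrees of freedom). Tests were two-sided, with Benjamini-Hochberg adjustment over all probe sets. Errors after ± are standard errors of this fit, folds are 2 to the power of the log2 difference, and the number of arrays limits the precision. The fit was tested on simulated data.

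Members, lists and tests were chosen with earlier results of these data known. Members were named by rule: per comparison the 10 highest and 10 lowest at an unadjusted p under 0.05, and always Clk1 to Clk4, Rbm3, Srsf1, Srsf2, Hnrnpa1 and Sf3b1; per list up to 2 in each direction. Other members are named to account for them, after their values were seen. Deviations from group means correlated between arrays of the same replicate number in all 7 pairs (r 0.109 to 0.721, against -0.591 to 0.404 for other pairs). The deviations of the 2 controls mirror each other, so these pairs are not independent. As a hint from the data, the replicate number was used as a block in an alternative fit, while the main fit held no block. 7 sequence motifs were searched on both strands of RefSeq promoters, chosen after the promoters had been seen; the 3-unit heat shock element was also searched and is not reported.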

Additional observations from a re-analysis of the deposited data

How the results depend on the processing

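No named member passed at an adjusted p under 0.05 in any of 16 alternatives, the smallest adjusted p being 0.0573 (Hnrnpa1, supine against control), and 690 of 704 values of named members kept their sign and their side of the threshold. The counts of members depended on each control array, and 5 residual degrees of freedom limit every test.

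The number of probe sets called in prone against control lungs, 9, was 35 without a filter, 0 at a filter of log2 7, 0 with an intensity trend, 119 in a fit to only the groups compared, 0 with the replicate block and 0 to 115 when single arrays were left out (115 without prone 1, 90 without supine 3, 65 without supine 2, 5 without supine 1, 0 without any other). In supine against control lungs, 9 became 18 without a filter, 0 at log2 7, 0 with the trend, 0 with only the groups compared, 0 with the replicate block and 0 to 153 without single arrays (153 without supine 2, 0 otherwise). In supine against prone lungs, 0 became 0 to 3 without single arrays (3 without prone 1). The count of members at an unadjusted p under 0.05 ranged from 6 to 20 without single arrays in prone, from 1 to 12 in supine and from 1 to 5 in supine against prone lungs. In supine lungs it was 12 with arrays centred on their medians, 12 after quantile normalization and 13 with the trend, against 7, and the replicate block gave 5 against 3 between positions. The members' median in prone lungs was 0.32 with centred arrays, 0.25 after quantile normalization, 0.24 with the replicate block and 0.16 to 0.26 without single arrays. In supine lungs it was 0.35, 0.33 and 0.26 under the same settings and 0.27 to 0.31 without single arrays, and between positions it was -0.086 with centred arrays and -0.041 to 0.047 without single arrays. The replicate block changed no other call.

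Sign changes were seen for values near 0. Srsf1 in supine against control lungs was 0.047 with centred arrays, 0.031 after quantile normalization, 0.19 with the replicate block, 0.036 with the mean of its probe sets, and -0.23 to 0.36 over single arrays left out, positive without control 2 and supine 3. Against prone lungs it was 0.015 with the mean of its probe sets and -0.45 to 0.14 over single arrays left out, positive without supine 3. Rbm3 in supine against control lungs was -0.22 to 0.31, negative without control 2 or supine 1. In supine against prone lungs Clk1 was -0.30 to 0.0503 and Clk3 -0.41 to 0.035, both positive without prone 3 or supine 1. The cause was not tested.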

Other observations

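The values below were picked out after the data were seen and were not part of a comparison. Rbm19 and Rbm28, nucleolar proteins of ribosome assembly, are given beside Rbm34. Rbm19 read 5.89 and 5.81 in controls, 7.73, 4.50 and 4.99 in prone and 8.25, 6.43 and 7.08 in supine lungs, the widest range of any member. Rbm28 read 7.91 and 8.03 in controls, 8.21, 7.78 and 7.95 in prone and 8.72, 7.73 and 9.40 in supine lungs. Supine 1 was the highest array for Rbm19 and Rbm34 and supine 3 for Rbm28, while prone 1 stood above supine 3 for Rbm19. Their differences between supine and prone lungs were 1.51 ± 0.86 for Rbm19, 0.63 ± 0.43 for Rbm28 and 1.23 ± 0.42 for Rbm34 (adjusted p 0.942 for each).

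Rbm24, a splicing factor of heart and skeletal muscle, read 9.04 on prone 2 and 8.74 on supine 3, the arrays with raised cardiac markers, and 8.99 on supine 2, where those markers averaged 3.29; the other arrays lay between 8.02 and 8.64. Rbm20, also a muscle splicing factor, read 4.06 on prone 2 and 4.22 on supine 3, within its range elsewhere.

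In the promoters of the 66 members found in the RefSeq table, CCATNTTG, a YY1 motif, was present in 16 (24.2%, against 7.64% of array genes), including Clk1, Clk4, Rbm33, Rbm15b, Srsf1 and Srsf2. GAANNTTC, 2 units of the heat shock element, was present in 7 (10.6% against 6.27%), none of them a Clk gene. TATAAA was present in 8 (12.1% against 7.65%), among them Rbm3, Rbmx and Hnrnpd. CGCGAGA was present in 8 (12.1% against 5.27%) and TCTCGCGA, which can overlap it, in 4 (6.06% against 2.02%). These shares compare letters in sets of unlike base composition and were not tested.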
